A study of Homo sapiens with 12 samples.

Results

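Histone genes were followed on 12 Affymetrix arrays in HEK cells, a human embryonic kidney line, in which tetracycline is meant to switch on the TRPM7 channel, a membrane protein that joins an ion channel to a kinase. The members were the genes of the core and linker histone clusters, found by their old or current symbols, and the variant genes H2AX, H2AZ1 and H3-3A. In all, 53 of the 19775 genes with a probe set of their own were such histone genes. They comprised 43 cluster genes, 3 variants, 5 linker or H2B genes on other chromosomes (H1-7, H1-8, H1-9P, H1-10 and H2BC12L) and 2 cluster pseudogenes (H2AC5P and H4C10P). Of the 43 cluster genes 40 lie on chromosome 6 and 3 on chromosome 1. The groups, with 3 arrays each, were the WT line (wild-type channel) untreated or given 1 ug of tetracycline for 72 hours, and the mutant line (TRPM7DKD, the kinase domain deleted, which the series design uses as a nonfunctional control for the inducer) untreated or given the same. All 4 groups grew in 5 ug/mL blasticidin. The amount of tetracycline has no volume in the labels, and no label says that arrays of 1 group came from separate cultures. The p-values therefore cover the spread between arrays, which may be technical.

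Replication-dependent histone genes sit together in clusters, have no introns, and give mRNAs that end in a stem-loop bound by SLBP instead of a poly(A) tail. Their mRNA is made in S phase and destroyed when DNA synthesis stops, and it supplies the core histones H2A, H2B, H3 and H4 and the linker histone H1 for new chromatin. Variants such as H2A.Z and H3.3 come from genes outside the clusters, have polyadenylated mRNAs and are made through the whole cell cycle. The labels do not state the primer used to copy the RNA, so how mRNAs with and without a tail were captured is not known here.

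Promoters of members that the results turn on are printed first. The cluster genes among them rose in the WT line, while the 3 member variants did not pass the test. Each window holds 300 bases around the annotated start, most of them before it, from RefSeq (GRCh38.p14), and it was the first listed for the gene. Capitals mark the TATA box, searched as the letters TATAAA. They also mark the word CCAAT, and the octamer, searched as ATTTGCAT. Both strands were searched, so reverse complements stand in capitals too, and overlapping words run together. The H2B genes H2BC11 at chr6:27132746-27133045 (minus strand), H2BC12 at chr6:27146809-27147108 (minus strand) and H2BC5 at chr6:26157871-26158170 (plus strand), the linker gene H1-2 at chr6:26056421-26056720 (minus strand), the H3 gene H3C2 at chr6:26032050-26032349 (minus strand) and the variant H2AX at chr11:119095416-119095715 (minus strand) read:
H2BC11: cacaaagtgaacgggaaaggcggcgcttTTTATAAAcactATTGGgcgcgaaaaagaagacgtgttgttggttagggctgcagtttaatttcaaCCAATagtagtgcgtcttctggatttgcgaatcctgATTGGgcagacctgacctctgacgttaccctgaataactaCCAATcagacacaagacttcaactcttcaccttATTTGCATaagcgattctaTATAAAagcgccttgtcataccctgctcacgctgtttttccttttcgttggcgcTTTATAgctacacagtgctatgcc
H2BC12: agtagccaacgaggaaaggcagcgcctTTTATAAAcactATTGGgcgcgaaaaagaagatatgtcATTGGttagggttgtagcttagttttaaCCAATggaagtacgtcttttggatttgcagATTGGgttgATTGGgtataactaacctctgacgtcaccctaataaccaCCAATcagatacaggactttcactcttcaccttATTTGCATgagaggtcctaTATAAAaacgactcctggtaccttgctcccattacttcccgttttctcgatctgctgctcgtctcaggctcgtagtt
H2BC5: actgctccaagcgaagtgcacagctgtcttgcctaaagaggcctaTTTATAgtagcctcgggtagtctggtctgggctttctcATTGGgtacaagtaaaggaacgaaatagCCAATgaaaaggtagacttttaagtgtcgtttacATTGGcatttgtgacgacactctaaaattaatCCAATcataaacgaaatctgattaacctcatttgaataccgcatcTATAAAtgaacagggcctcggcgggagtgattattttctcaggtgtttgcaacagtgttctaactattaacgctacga
H1-2: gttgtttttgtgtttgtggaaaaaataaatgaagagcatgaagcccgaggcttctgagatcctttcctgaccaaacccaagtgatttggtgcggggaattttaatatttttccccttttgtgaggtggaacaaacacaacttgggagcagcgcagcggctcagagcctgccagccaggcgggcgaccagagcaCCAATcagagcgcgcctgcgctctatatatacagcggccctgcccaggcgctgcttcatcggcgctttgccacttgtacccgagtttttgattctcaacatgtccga
H3C2: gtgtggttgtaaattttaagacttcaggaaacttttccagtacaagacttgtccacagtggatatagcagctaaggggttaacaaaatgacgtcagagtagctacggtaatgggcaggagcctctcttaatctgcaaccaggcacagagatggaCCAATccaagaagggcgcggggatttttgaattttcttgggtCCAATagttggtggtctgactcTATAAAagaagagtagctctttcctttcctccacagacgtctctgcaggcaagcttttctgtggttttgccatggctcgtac
H2AX: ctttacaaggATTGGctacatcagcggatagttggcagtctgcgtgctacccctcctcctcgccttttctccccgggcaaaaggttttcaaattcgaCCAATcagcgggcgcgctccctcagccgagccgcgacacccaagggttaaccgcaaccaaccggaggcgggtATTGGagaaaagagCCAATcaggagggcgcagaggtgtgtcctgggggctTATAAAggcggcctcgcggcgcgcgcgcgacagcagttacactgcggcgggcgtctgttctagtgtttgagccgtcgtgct
H2BC11 and H2BC12 hold all 3 words, H2BC5, H3C2 and H2AX hold TATAAA and CCAAT without the octamer, and H1-2 holds CCAAT alone. Of the 43 cluster genes 41 had a listed promoter. TATAAA was in 28 of these 41 (68.3%) against 12% of the 27305 gene promoters in the table, CCAAT in 36 (87.8%) against 35.7%, and the octamer in 16 (39%) against 1.8%. The octamer was in 6 of 8 H2A and 10 of 13 H2B promoters and in 0 of 6 H1, 0 of 7 H3 and 0 of 7 H4 promoters. CCAAT was in 2 of 7 H4 promoters and in every listed H1, H2A, H2B and H3 cluster promoter. Among the variants 2 of 3 held TATAAA, 3 of 3 held CCAAT and 0 of 3 held the octamer. A match is only a run of letters, and factor binding was not measured.

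Many H2A and H2B genes stand head to head and share the DNA between their starts. Among the listed members 4 pairs had windows that overlapped on opposite strands: H2AC6 with H2BC4, H2AC14 with H2BC14, H2AC15 with H2BC15 and H2AC17 with H2BC17, with 255 to 293 shared bases. The window of H2AC6 at chr6:26123922-26124221 (plus strand) is shown for the pair in which both genes were tested and at least 1 of them was called in each comparison but the mutant induction and the difference:
H2AC6: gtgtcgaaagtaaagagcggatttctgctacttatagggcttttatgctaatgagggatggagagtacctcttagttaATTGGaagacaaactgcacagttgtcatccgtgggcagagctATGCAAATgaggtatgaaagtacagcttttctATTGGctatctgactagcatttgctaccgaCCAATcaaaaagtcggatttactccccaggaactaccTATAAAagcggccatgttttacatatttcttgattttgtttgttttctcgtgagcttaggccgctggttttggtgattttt
It holds all 3 words, and read from the other strand most of it is the promoter of H2BC4.

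The values are MAS5 signals on a log2 scale, 1 probe set (several short probes aimed at the same transcript) per gene, the one with the highest mean over the 12 arrays. Signals of different probe sets were not compared with each other. A probe set was tested where at least 1 group had a mean over 6.39, the overall median signal, which kept 29553 of 54675 probe sets. A call is a Benjamini-Hochberg adjusted p under 0.05 over all of these in the limma fit, errors are its standard error (SE) with n = 3 arrays per group, and a positive change means higher with tetracycline or higher in the WT line. The precision is limited by the number of arrays. Of the HEK markers looked up, 9 of 11 with a probe set passed the filter, while LHX1 and CRYAB were dim. Of markers for blood and immune cells 1 of 5 passed (HBB) and for fibroblast and endothelial cells 3 of 9 (COL1A1, PECAM1 and KDR). No TRPM7 probe set rose with tetracycline: 3 were tested, the changes in WT were from -2.00 to 0.11, and 1 fell (adjusted p = 0.0411), so groups are called here as they were labelled. On the log2 scale, the actin control read near its 3′ end over the same control near its 5′ end ran from 0.632 to 1.29 in WT untreated, 0.903 to 1.36 in WT with tetracycline and 0.227 to 0.288 in both mutant groups. In cluster genes the median SD within a group was 0.587 and 0.689 in the WT groups against 0.221 and 0.217 in the mutant groups. Over all tested probe sets it was 0.299 and 0.326 against 0.174 and 0.19. The fit pools the spread of a probe set over all 4 groups, so a gene has the same SE in both lines. With such unequal spreads the SE and p-values can be too small for changes in WT and too large for changes in the mutant line.

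Of the 43 cluster genes 26 passed the filter on low signal: 3 of 6 H1, 6 of 8 H2A, 9 of 13 H2B, 3 of 8 H3 and 5 of 8 H4 genes. The other 17 were H1-1, H1-5, H1-6, H2AC4, H2AC15, H2BC1, H2BC3, H2BC13, H2BC14, H3-4, H3C1, H3C3, H3C7, H3C11, H4C1, H4C7 and H4C13. Their group means lay between 0.585 and 6.3 on the log2 scale, and 0 of them was called in any comparison when the filter was dropped. All 3 variants were tested. H1-10 and H2BC12L were tested among the genes on other chromosomes, and the pseudogene H2AC5P was tested and not called. A further 28 cluster genes of the RefSeq gene table had no probe set of their own by the platform annotation, 19 of them standing on probe sets shared by several genes. The variant gene H3F3B (now H3-3B) stands only on shared probe sets.

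**Figure D1:**
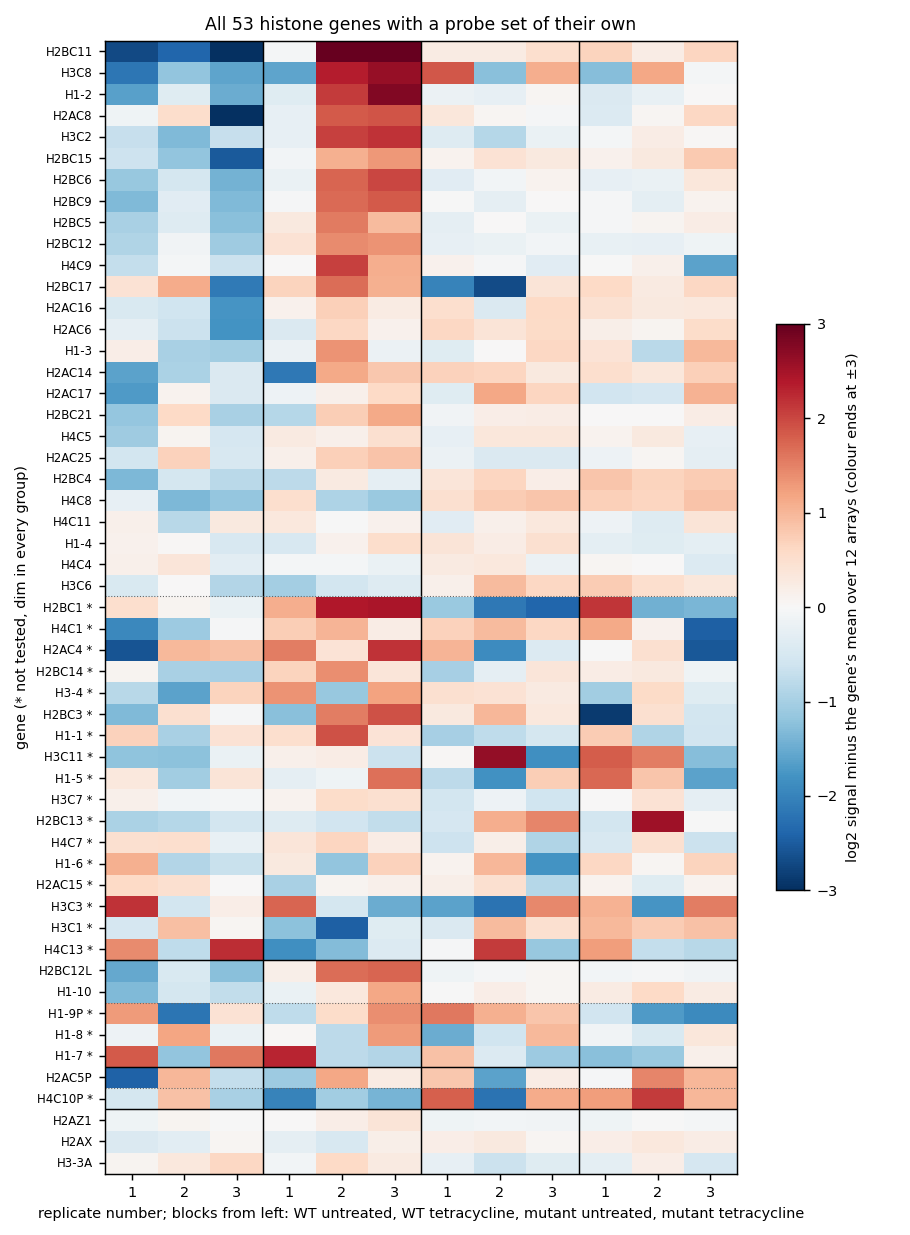
Log2 signal of each of the 53 histone genes (rows) on each of the 12 arrays (columns, in 4 groups of 3) minus the mean of the gene over all arrays, in a blue to red scale that ends at 3 below and above. A star marks genes too dim to be tested; blocks from the top are the tested and then the dim cluster genes, genes on other chromosomes, pseudogenes and variants, and the red cells gather in replicates 2 and 3 of WT with tetracycline.

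Tetracycline in the WT line was followed by a rise of cluster histone genes. Of the 26 tested cluster genes 10 rose and 0 fell, where 7.83% of all tested probe sets rose and 9.11% fell. Of the 26, H2AC8, H2BC11, H2BC17 and H4C9 passed the filter only through WT with tetracycline, the group where they were highest, and the other 22 hold 9 of the 10 rises. With no filter 8 of all 43 rose, where 3.33% of all probe sets did so. The median change of all 43, tested or not, was 0.92, against 0.0506 over all 19775 genes with a probe set of their own. By family, 6 of 9 H2B genes rose, with 2 of 6 H2A, 1 of 3 H1, 1 of 3 H3 and 0 of 5 H4 genes. Of the 3 member variants 0 rose or fell, with changes from -0.08 to 0.22. H2AZ1 had an unadjusted p under 0.05 in limma, as had 4297 of 13067 tested genes. In bulk RNA a change in the share of cells in S phase and a change in histone mRNA per cell cannot be told apart.

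The H2B genes, whose proteins pair with H2A in the nucleosome, made up 6 of the 10 rises. H2BC11 read 3.1, 3.43 and 1.29 in WT untreated, 5.75, 9.13 and 9.59 in WT with tetracycline, 6.04, 6.04 and 6.31 in mutant untreated and 6.48, 6.03 and 6.45 in mutant with tetracycline. H2BC12 read 12.47, 13.26 and 12.3 in WT untreated, 13.81, 14.79 and 14.71 in WT with tetracycline, 13.11, 13.16 and 13.29 in mutant untreated and 13.15, 13.11 and 13.25 in mutant with tetracycline. H2BC5 read 9.12, 9.7 and 8.86 in WT untreated, 10.38, 11.66 and 11.06 in WT with tetracycline, 9.84, 10.12 and 9.91 in mutant untreated and 10.07, 10.18 and 10.31 in mutant with tetracycline. In all 3 genes the WT groups did not overlap, and replicate 1 of WT with tetracycline was the lowest of the treated arrays. H2BC11 rose by 5.55 ± 0.845 (SE, adjusted p = 0.000833), H2BC12 by 1.76 ± 0.243 (SE, adjusted p = 0.000458), or 3.38-fold, and H2BC5 by 1.81 ± 0.27 (SE, adjusted p = 0.00073), or 3.5-fold. H2BC11 passed the filter through WT with tetracycline alone, at a mean of 8.15, and its other group means were 2.61, 6.13 and 6.32, under the filter at 6.39. With an offset of 16 added to the signal before log2 its rise was 3.78 (adjusted p = 0.00129), so its size rests on low values and no fold is given. The 2 probe sets annotated to H2BC11 together with other H2B genes changed by 0.67 and -0.62, and neither passed.

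H2BC9 read 8.06, 9.06 and 8.06 in WT untreated, 9.36, 11.09 and 11.23 in WT with tetracycline, 9.37, 9.12 and 9.41 in mutant untreated and 9.35, 9.09 and 9.49 in mutant with tetracycline. H2BC6 read 9.31, 9.93 and 9.05 in WT untreated, 10.25, 12.19 and 12.46 in WT with tetracycline, 10.11, 10.37 and 10.56 in mutant untreated and 10.21, 10.26 and 10.79 in mutant with tetracycline. H2BC15 read 6.05, 5.5 and 4.14 in WT untreated, 6.6, 7.74 and 7.98 in WT with tetracycline, 6.77, 7.1 and 6.97 in mutant untreated and 6.8, 6.98 and 7.45 in mutant with tetracycline. The WT groups stood apart in each of these H2B genes as well, with untreated replicate 2 nearest to treated replicate 1 for H2BC9 and H2BC6. The rises were 2.17 ± 0.392 (SE, adjusted p = 0.00233) for H2BC9, 2.21 ± 0.423 (SE, adjusted p = 0.00328) for H2BC6 and 2.21 ± 0.48 (SE, adjusted p = 0.00681) for H2BC15. H2BC5, H2BC6 and H2BC9 were read by probe sets of the _x_at kind, whose probes can also match other transcripts, and the H2B genes are near copies of each other, so these 3 are uncertain as separate genes. H2BC5 had another probe set of the same kind, which rose by 1.30 ± 0.287 (SE, adjusted p = 0.00731). Tested H2B genes that did not pass were H2BC4 (0.62), H2BC17 (1.33) and H2BC21 (0.85).

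Among the 3 tested linker histone genes of the clusters, whose proteins bind the DNA between nucleosomes, H1-2 rose. H1-2 read 8.91, 10.18 and 9.04 in WT untreated, 10.18, 12.64 and 13.32 in WT with tetracycline, 10.36, 10.29 and 10.59 in mutant untreated and 10.1, 10.32 and 10.54 in mutant with tetracycline. Replicate 1 of WT with tetracycline was level with untreated replicate 2, both at 10.18, while the other treated arrays were far above every untreated one. The change was 2.67 ± 0.558 (SE, adjusted p = 0.00543), or 6.36-fold. H1-3 changed by 0.95 ± 0.56 (SE, adjusted p = 0.265) and H1-4 by 0.17 ± 0.427 (SE, adjusted p = 0.825), and neither passed.

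Of the H3 and H2A genes 3 rose. H3C2 read 5.89, 5.26 and 5.9 in WT untreated, 6.35, 8.64 and 8.75 in WT with tetracycline, 6.21, 5.74 and 6.38 in mutant untreated and 6.53, 6.81 and 6.62 in mutant with tetracycline. H2AC16 read 6.0, 5.87 and 4.69 in WT untreated, 6.6, 7.19 and 6.72 in WT with tetracycline, 6.97, 6.03 and 7.06 in mutant untreated and 6.93, 6.76 and 6.78 in mutant with tetracycline. H2AC6 read 8.99, 8.63 and 7.47 in WT untreated, 8.84, 9.88 and 9.4 in WT with tetracycline, 9.88, 9.64 and 9.84 in mutant untreated and 9.44, 9.35 and 9.81 in mutant with tetracycline. The WT groups of H3C2 and H2AC16 did not overlap, but for H2AC6 treated replicate 1 was below untreated replicate 1. H3C2, which encodes H3.1, rose by 2.23 ± 0.527 (SE, adjusted p = 0.0108), H2AC16 by 1.32 ± 0.429 (SE, adjusted p = 0.048) and H2AC6 by 1.01 ± 0.328 (SE, adjusted p = 0.0471), the latter 2 with adjusted p close to the threshold. H2AC6 and H3C2 were read by _s_at probe sets, which are built to match more than 1 transcript.

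Other H2A and H3 members had large changes with wide errors. H3C8 changed by 2.78 ± 1.02 (SE, adjusted p = 0.0755) and H2AC8 by 2.54 ± 0.996 (SE, adjusted p = 0.0949), and neither passed. H2AC8 read 5.90, 6.57 and 1.53 in the untreated WT arrays, so its mean was pulled down by replicate 3. H2AC14 changed by 0.92, H2AC17 by 0.88 and H2AC25 by 0.69, and none passed. H3C6 changed by -0.22 ± 0.371 (SE, adjusted p = 0.726) on its brighter probe set, while another probe set of the gene rose by 1.77 ± 0.551 (SE, adjusted p = 0.0397), so its direction depends on the probe set.

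H4 genes, which pair with H3, did not pass in the WT line. Their changes were 1.52 for H4C9, 0.80 for H4C5, 0.42 for H4C8, 0.27 for H4C11 and -0.17 for H4C4. The WT groups of H4C5 and H4C9 did not overlap. Over all 43 cluster genes, with no filter, every treated WT array was above every untreated one in 14, where 10.1% of all probe sets did so. Of the 22 tested genes that did not need WT with tetracycline to pass the filter 9 stood apart in this way, where 13.7% of all tested probe sets did so.

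On the other chromosomes, the linker gene H1-10 and the H2B gene H2BC12L on chromosome 21 also rose in the WT line. H1-10 read 11.33, 12.14 and 11.92 in WT untreated, 12.47, 12.97 and 13.81 in WT with tetracycline, 12.64, 12.86 and 12.72 in mutant untreated and 12.9, 13.26 and 12.9 in mutant with tetracycline. H2BC12L read 10.43, 11.5 and 10.71 in WT untreated, 12.15, 13.63 and 13.71 in WT with tetracycline, 11.83, 11.92 and 12.02 in mutant untreated and 11.88, 11.92 and 11.85 in mutant with tetracycline. In both genes every treated WT array was above every untreated one. H1-10, which makes a linker histone outside the clusters, rose by 1.29 ± 0.266 (SE, adjusted p = 0.00501), and H2BC12L by 2.28 ± 0.329 (SE, adjusted p = 0.000596), read by an _x_at probe set.

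None of the 3 member variants passed in the WT line. This does not hold for histone variants at large: of 5 other tested variants 2 rose, H2AJ by 1.36 and H2AZ2 by 0.62. H2AZ1 read 14.66, 14.88 and 14.79 in WT untreated, 14.8, 14.99 and 15.18 in WT with tetracycline, 14.67, 14.71 and 14.69 in mutant untreated and 14.66, 14.79 and 14.74 in mutant with tetracycline. H2AX read 13.29, 13.4 and 13.78 in WT untreated, 13.45, 13.25 and 13.89 in WT with tetracycline, 13.92, 14.02 and 13.79 in mutant untreated and 13.94, 14.04 and 13.95 in mutant with tetracycline. H3-3A read 9.32, 9.56 and 9.87 in WT untreated, 9.16, 9.84 and 9.51 in WT with tetracycline, 9.0, 8.59 and 8.87 in mutant untreated and 8.95, 9.44 and 8.74 in mutant with tetracycline. The WT groups overlapped in each of the 3. H2AZ1, which encodes H2A.Z, found around the starts of genes, changed by 0.22 ± 0.101 (SE, adjusted p = 0.157). H2AX, whose protein is phosphorylated around DNA breaks, changed by 0.04 ± 0.155 (SE, adjusted p = 0.874), and H3-3A, a source of H3.3, by -0.08 ± 0.229 (SE, adjusted p = 0.848). Of the probe sets shared by H3.3 genes 0 of 8 passed, and their changes ran from -0.26 to 0.14. None of these p-values shows that a variant did not change, and H2AZ1 rose by 0.31 (adjusted p = 0.0273) when replicate 1 of WT with tetracycline was left out.

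**Figure D2:**
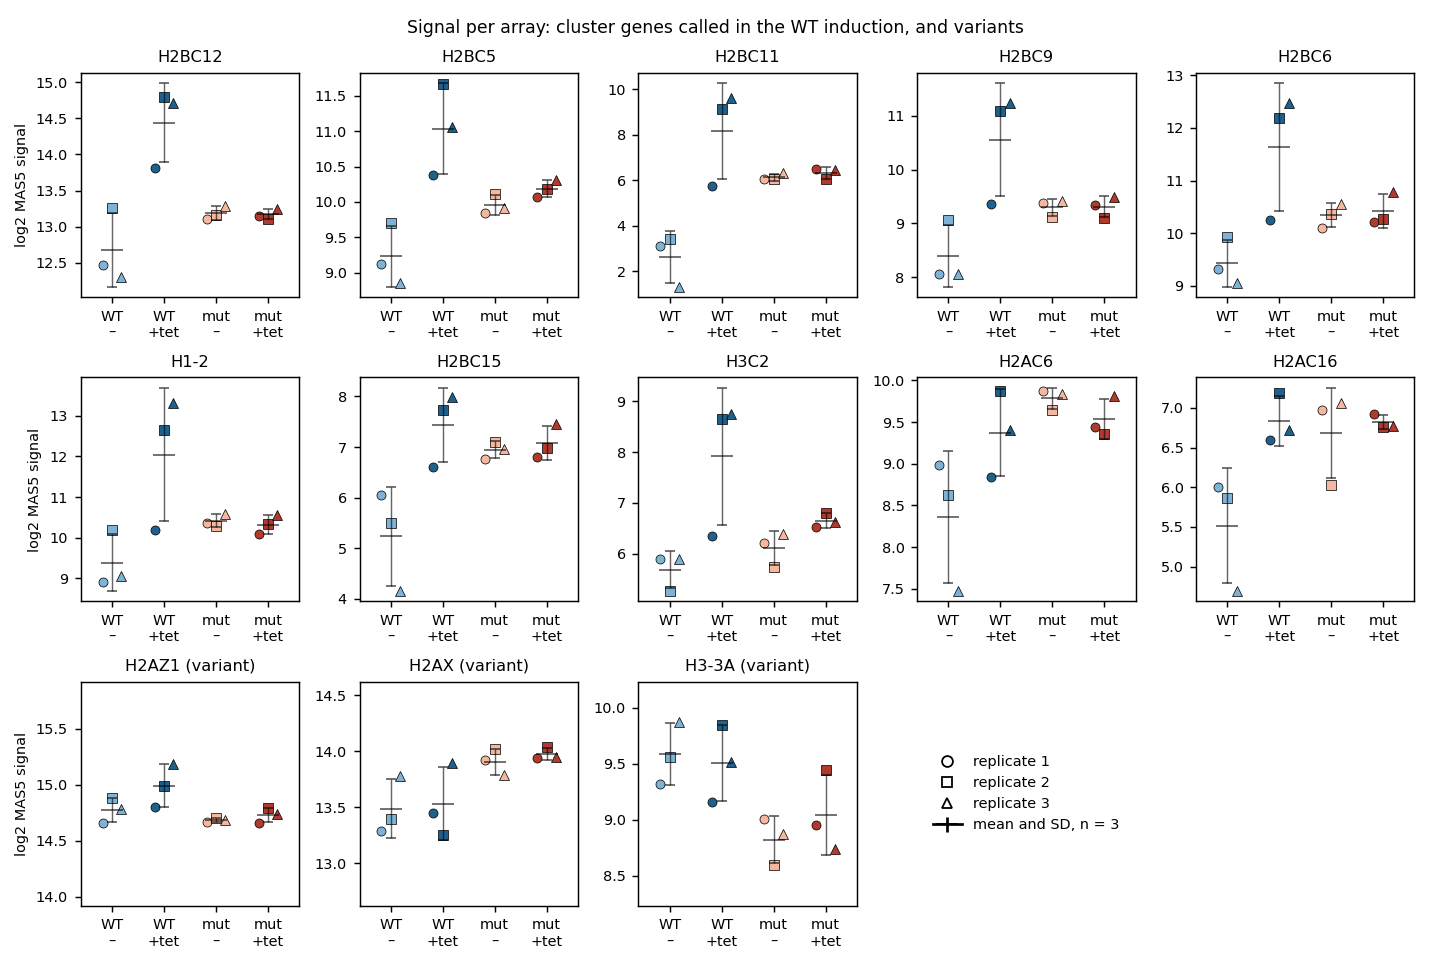
Log2 MAS5 signal on each array (points; circles, squares and triangles are replicates 1, 2 and 3) for the 10 cluster genes that rose in the WT line and the 3 variants, with the group mean and SD (n = 3). Replicate 1 of WT with tetracycline lies below the other treated arrays in every cluster gene shown, and each panel has its own axis range.

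The cluster genes that rose shared this array pattern. Each treated WT array was placed on its own scale. There 0 is the mean of untreated WT and 1 the mean of the other treated WT arrays. Replicate 1 of WT with tetracycline stood at a median of 0.418 over the 10 genes, from 0.222 (H3C2) to 0.753 (H2AC16). Replicates 2 and 3 stood at a median of 1.43 each, on scales whose upper mark includes the low replicate 1. These positions were not taken for other genes, so the pattern is not shown to be particular to histone genes. The limma array weights, fitted over all tested probe sets, were also lowest for replicate 1 of WT with tetracycline (0.267). Relative to the mean of the untreated mutant arrays, the median over all 43 cluster genes was -0.802, -0.385 and -0.697 on the untreated WT arrays and -0.10, 0.644 and 0.803 with tetracycline. On the mutant arrays it was between -0.114 and 0.156. For the 3 variants the same median was between -0.03 and 0.49 on the WT arrays.

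**Figure D3:**
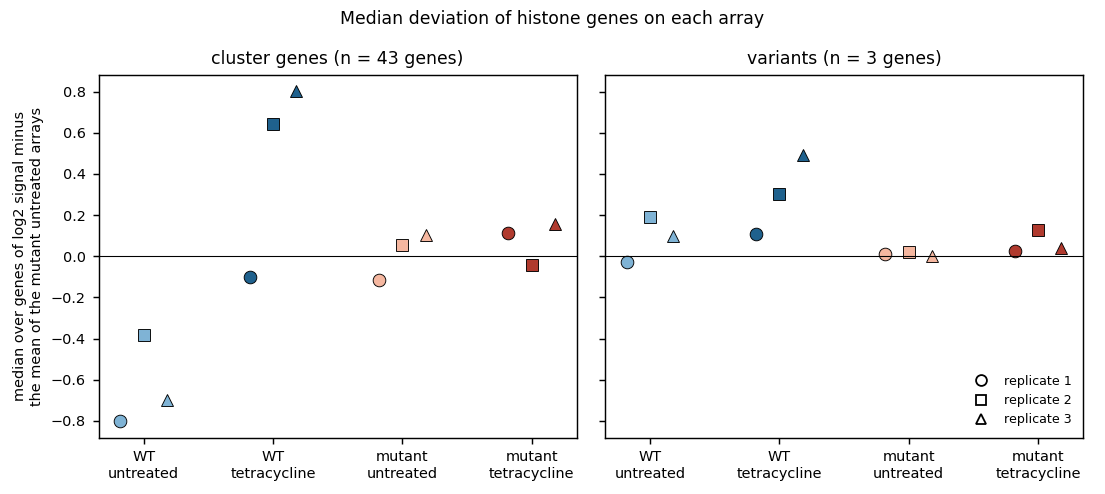
Median over genes of the log2 signal minus the mean of the untreated mutant arrays, for 43 cluster genes (left) and 3 variants (right) on each of the 12 arrays, by group (x axis) and replicate number (marker). For cluster genes the untreated WT arrays lie below 0, replicates 2 and 3 of WT with tetracycline lie highest, and replicate 1 lies between them.

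Leaving out replicate 1 of WT with tetracycline brought 16 of 26 cluster genes past the threshold, with 12.4% of all probe sets rising. Without the replicate 3 arrays of all 4 groups the limma count was 0, H2BC12 included, and 8 of the 26 had an unadjusted p under 0.05. The share of all probe sets under that unadjusted threshold was not counted in this fit. H2BC5, H2BC6, H2BC9, H2BC11, H2BC12, H2BC15 and H1-2 stayed called when any single array was left out, H3C2 was lost without replicate 2 or 3 of WT with tetracycline, and H2AC16 and H2AC6 were lost in 8 and 9 of the 12 fits. With only the WT arrays in the fit 5 of the 10 passed, and H1-2 (adjusted p = 0.0504), H2BC15 (adjusted p = 0.0649), H3C2, H2AC16 and H2AC6 did not, and without the _x_at and _s_at probe sets 5 of 17 tested genes passed.

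In the mutant line tetracycline changed no cluster gene past the threshold. Of the 26 tested cluster genes 0 rose and 0 fell, where 0% of all probe sets passed. An unadjusted p under 0.05 in limma was found in 0 of the 26 and in 231 of 13067 tested genes. The median change was 0.01 over all 43. Among the genes that rose in WT, H2BC11 changed by 0.19 ± 0.845 (SE, adjusted p = 1), H2BC12 by -0.02 ± 0.243 (SE, adjusted p = 1) and H1-2 by -0.09 ± 0.558 (SE, adjusted p = 1) in the mutant line. The largest change was that of H2BC17, 1.93 ± 0.928 (SE, adjusted p = 1). Every treated mutant array was above every untreated one for H2BC4 and H3C2, 2 of 26, where 6.86% of all tested probe sets did so. For the variants the changes were 0.04 (H2AZ1), 0.07 (H2AX) and 0.22 (H3-3A).

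**Figure D4:**
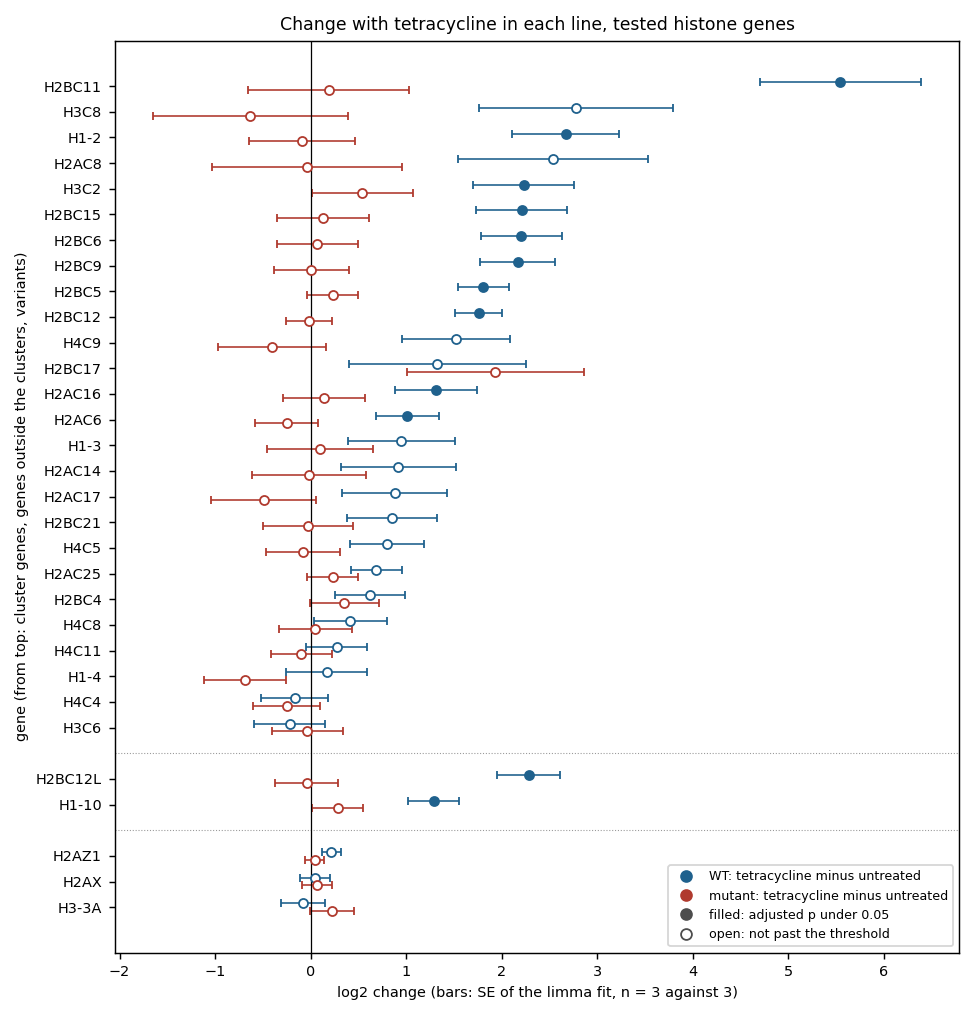
Log2 change with tetracycline (x axis, with the SE of the limma fit, n = 3 against 3) of each tested histone gene in the WT line (blue) and the mutant line (red). Filled points passed an adjusted p of 0.05: 10 cluster genes, H2BC12L and H1-10 in the WT line, and none in the mutant line.

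The direct test of whether the WT change differed from the mutant change called 0 of the 26 cluster genes. Over all probe sets 0.139% were called. Of the 26, 11 had an unadjusted p under 0.05 in limma, as had 1991 of 13067 tested genes. The 11 include H2BC11 and H4C9, which passed the filter only through WT with tetracycline. The rise in WT and its absence among the calls in the mutant line is therefore not shown to be a difference between the lines. H2BC12 came closest, with a difference of 1.78 ± 0.343 (SE, adjusted p = 0.0569), followed by H2BC11 with 5.36 ± 1.2 (SE, adjusted p = 0.0842) and H2BC5 with 1.58 ± 0.381 (SE, adjusted p = 0.093). H2BC12L had 2.32 ± 0.466 (SE, adjusted p = 0.0617). The difference was above 0 in 24 of 26 cluster genes, and in 6601 of 13067 tested genes. The 24 include H2BC11 and H4C9 again, and H2AC8, which passed the filter in the same way. The median over all 43 was 0.881, against 0.0229 over all 19775 genes. The 26 genes were read on the same arrays, so they are not independent. For the variants it was -0.30 (H3-3A), -0.02 (H2AX) and 0.17 (H2AZ1). This count rested on 1 array: without replicate 1 of WT with tetracycline 11 of the 26 were called (H1-2, H2AC6, H2AC14, H2BC5, H2BC6, H2BC9, H2BC11, H2BC12, H2BC15, H3C2 and H3C8), with 9.14% of all probe sets called. With limma array weights, which gave that array the lowest weight of the 12 (0.267), 10 were called. The share of all probe sets called with these weights was not counted, so the 10 are not read as particular to histone genes.

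Before any tetracycline the WT line had less signal of cluster histone genes than the mutant line. Of the 26 tested genes 5 were lower in WT (H2AC6, H2BC4, H2BC11, H2BC15 and H4C8) and 0 higher, where 8.7% of all probe sets were lower and 4.19% higher. The median difference was -0.64 over all 43, against -0.0285 over all 19775 genes. Of the 26, which were read on the same arrays, 24 were below 0, as were 6729 of 13067 tested genes. H2BC11 differed by -3.52 ± 0.845 (SE, adjusted p = 0.0147), H2BC15 by -1.72 ± 0.48 (SE, adjusted p = 0.0301) and H2AC6 by -1.43 ± 0.328 (SE, adjusted p = 0.012), and all 3 are among the genes that rose with tetracycline, a comparison that shares the untreated WT arrays. Neither untreated group of H2BC11 had a mean over the filter, and with the offset of 16 its difference was -1.91 (adjusted p = 0.0588), so this call rests on low values. In 13 of the 26 every untreated WT array was below every untreated mutant array, where 22.1% of all tested probe sets showed this. Leaving out any 1 of the untreated mutant arrays left 1 call. Leaving out replicate 1 of WT with tetracycline gave 11 (12.1% of all probe sets lower). Without the replicate 3 arrays the limma count was 0, with 7 at an unadjusted p under 0.05, a threshold at which the share of all probe sets was not counted. The actin ratios given above also separate the lines. The 18S rRNA control, which has no poly(A) tail, read from 7.89 to 9.40 in untreated WT and from 7.07 to 7.33 in untreated mutant on the log2 scale, with no overlap, and from 8.05 to 9.57 against 5.88 to 7.36 with tetracycline. The part of either control in these values was not tested.

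H4C8 and H2BC4 were called lower in the WT line in both states, for H2BC4 with tetracycline only just. H4C8 read 7.46, 6.37 and 6.54 in WT untreated, 8.23, 6.8 and 6.59 in WT with tetracycline, 8.18, 8.47 and 8.55 in mutant untreated and 8.43, 8.36 and 8.57 in mutant with tetracycline. H2BC4 read 5.28, 6.11 and 5.83 in WT untreated, 5.83, 6.9 and 6.35 in WT with tetracycline, 6.98, 7.27 and 6.82 in mutant untreated and 7.47, 7.29 and 7.38 in mutant with tetracycline. In both genes every WT array was below every mutant array of the same treatment, and treated WT replicate 1 of H4C8, at 8.23, came nearest to the mutant values. Untreated, H4C8 differed by -1.61 ± 0.381 (SE, adjusted p = 0.0135) and H2BC4 by -1.29 ± 0.364 (SE, adjusted p = 0.0314), and with tetracycline by -1.25 ± 0.381 (SE, adjusted p = 0.0259) and -1.02 ± 0.364 (SE, adjusted p = 0.0498). When 1 array was left out, the untreated call was lost in 2 of 12 fits for H4C8 and 4 of 12 for H2BC4. With tetracycline it was lost in 5 and 9 of 12, and for H2BC4 also in 6 of 10 other alternatives, array weights and quantile normalization among them. Both WT means of H2BC4 were under the filter. Another H4C8 probe set gave -1.48 ± 0.424 (SE, adjusted p = 0.0329) untreated.

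With tetracycline in both lines, 5 of 26 cluster genes were higher in WT and 3 lower, where 10.2% of all probe sets were higher and 17.3% lower. The higher ones were H1-2 (1.73), H2BC12 (1.27), H2BC9 (1.25), H2BC6 (1.22) and H2BC5 (0.85), all also among the rises within WT. The lower ones were H4C8 (-1.25), H3C6 (-1.19) and H2BC4 (-1.02, adjusted p = 0.0498). H3C6 read 6.1, 6.56 and 5.68 in WT untreated, 5.52, 5.99 and 6.16 in WT with tetracycline, 6.7, 7.5 and 7.17 in mutant untreated and 7.31, 7.05 and 6.9 in mutant with tetracycline. In H3C6 the WT arrays lay below the mutant arrays of the same treatment, with no overlap. Its other probe set was also lower in every WT array, by -2.34 untreated (adjusted p = 0.0131), where it passed, and by -0.99 with tetracycline (adjusted p = 0.195), where it did not. The median difference was 0.36 over all 43. Without replicate 1, 2 or 3 of the treated mutant arrays 1 gene stayed past the threshold, without replicate 2 or 3 of the treated WT arrays 2 did, and without the replicate 3 arrays 1 did. H2BC12 kept its call under each alternative run.

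**Figure D5:**
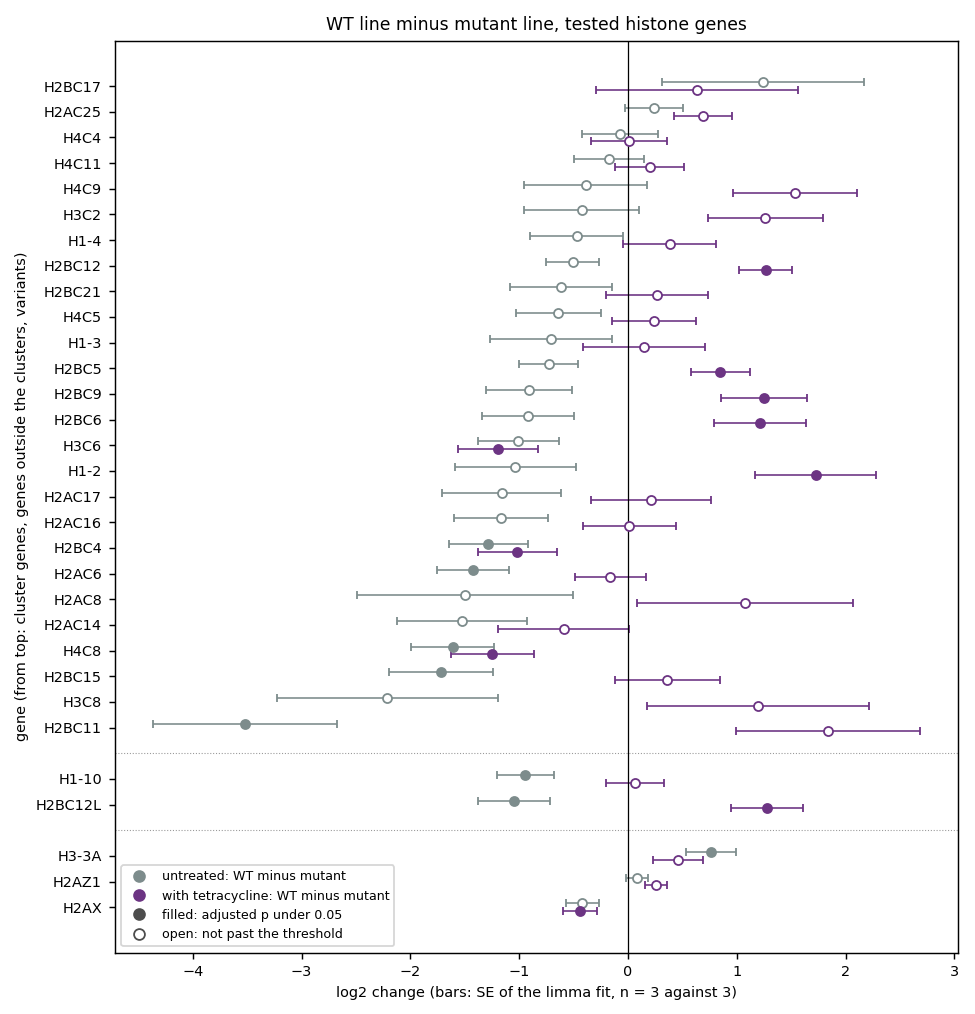
Log2 difference between the WT and the mutant line (WT minus mutant, x axis, with the SE of the limma fit, n = 3 against 3) of each tested histone gene, untreated (grey) and with tetracycline (purple). Untreated, 24 of 26 cluster genes lie below 0, as do 6729 of 13067 tested genes. With tetracycline 21 of 26 lie above 0, as do 6326 of 13067. The 21 include H2AC8, H2BC11, H2BC17 and H4C9, which passed the filter only through WT with tetracycline. Filled points passed an adjusted p of 0.05.

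Between the lines 1 of 3 variants was called in each state, where the shares over all probe sets given above were 4.19% higher and 8.7% lower untreated and 10.2% higher and 17.3% lower with tetracycline. H3-3A was higher in the untreated WT line by 0.76 ± 0.229 (SE, adjusted p = 0.041), with every WT array above every mutant array. This call was lost in 6 of 12 fits that left out 1 array, with no filter, without a trend and without the replicate 3 arrays. Of the 8 probe sets shared by H3.3 genes 2 were higher in untreated WT, with a median difference of 0.025. H2AX was lower in WT with tetracycline by 0.441 ± 0.155 (SE, adjusted p = 0.0463), and untreated its difference was -0.42 and did not pass. The other H2AX probe sets disagreed with each other, since untreated 1 was lower in WT by 1.79 ± 0.277 (SE, adjusted p = 0.00142) and 1 higher by 0.89 ± 0.215 (SE, adjusted p = 0.0154), so no direction is given for H2AX between the lines. H2AZ1 differed by 0.09 untreated and 0.26 with tetracycline and did not pass.

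Probe sets shared by several histone genes were read by family, since they name no single gene. Of 28 such probe sets 24 were tested. In the WT line with tetracycline 3 of 5 shared H2A, 3 of 5 shared H2B, 1 of 1 shared H3, 1 of 3 shared H4 and 0 of 2 shared H2A and H3 probe sets rose, and 0 fell, where 7.83% of all tested probe sets rose and 9.11% fell. The H2A changes ran from 0.86 to 2.61, the H2B changes from -0.62 to 2.42, and the H3 probe set rose by 2.48 ± 0.348 (SE, adjusted p = 0.000514). In the mutant line 0 of these passed, with changes from -0.29 to 0.59.

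Genes that transcribe, process and assemble histones were read against the same shares, 7.83% of all tested probe sets rising and 9.11% falling in the WT line. Of 14 genes of histone mRNA processing, tested in full, 1 rose in the WT line and 0 fell: ZNF473, which works with the U7 particle in cutting the mRNA end, rose by 1.26 ± 0.19 (SE, adjusted p = 0.000762). The median of that list was -0.18. Of 13 tested genes of histone gene transcription 2 rose, E2F2 by 0.72 and CCNE2, a cyclin of the entry into S phase, by 0.49. Of 9 genes of histone mRNA decay 0 passed the test, with DCP2 at -0.41 (adjusted p = 0.0699) closest to it.

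Of 22 chaperones and assembly factors 2 rose and 2 fell, close to the 7.83% and 9.11% of all tested probe sets. ASF1B, which carries H3 and H4 to new DNA, rose by 0.57, and HJURP, named after its values were seen, was the other rise. ANP32E, which removes H2A.Z, fell by 0.80 and SUPT16H, a subunit of FACT, fell by 0.40. Of 15 S-phase genes 1 rose (RRM2, a subunit of ribonucleotide reductase, by 0.86) and 1 fell (MCM4, of the replicative helicase, by 0.51), with a list median of -0.10. Of 5 tested variants not among the members 2 rose, H2AJ by 1.36 and H2AZ2 by 0.62. In the mutant line 0 genes of these lists passed.

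Between the untreated lines, the processing list had 2 genes higher in WT (CPSF3 by 0.80 and CASP8AP2 by 0.51) and 0 lower, where 4.19% of all probe sets were higher and 8.7% lower. The transcription list had 0 higher and 1 lower (NFYC, a subunit of the factor that binds CCAAT, at -0.54), and the decay list 1 higher (TUT7 by 0.84) and 1 lower (PATL1 at -0.61). Of the chaperones 2 were higher and 4 lower, among them ASF1B at -0.95 and RBBP4 at -0.64 lower and ANP32E at 0.58 higher. Of the S-phase genes 1 was lower (UHRF1 at -0.49) and 0 higher.

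Paired genes could be set side by side where both were tested. In the WT line H2AC6 changed by 1.01 and H2BC4 by 0.62, and H2AC17 by 0.88 and H2BC17 by 1.33, of which only H2AC6 passed. Between the untreated lines H2AC6 and H2BC4 were both lower in WT, while H2AC17 differed by -1.16 and H2BC17 by 1.24 and neither passed. H2BC17 was dim, with untreated means of 5.08 in WT and 3.84 in mutant, and only its mean in WT with tetracycline, 6.40, was over the filter. In the other pairs H2BC14 and H2AC15 were too dim to be tested.

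The promoter words were also counted by response. Among the 10 cluster genes that rose in WT, TATAAA was in 6, CCAAT in 10 and the octamer in 6. Among the 16 tested cluster genes that did not rise, these words were in 11, 12 and 6 promoters. These counts mix families, so they do not tie a word to the rise. The octamer was found only in H2A and H2B cluster promoters, and CCAAT was missing only in promoters of H4, a family without a rise. Among tested H2A and H2B genes the octamer was missing in H2BC5 and H2BC15, which rose, and in H2AC25, which did not. The rises named here span promoters with all 3 words, such as H2BC11 and H2BC12, and without the octamer, such as H2BC5, H3C2 and H1-2.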

How the data were processed

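The deposited values are MAS5 signals, an intensity per probe set on a linear scale, made by the authors per the submitters' processing notes, with version and settings not given in the sources used here. Every array had the same mean after trimming 2% at each end (500.06 to 500.07), so the authors had scaled the arrays to a common mean, and no further normalization between arrays was added. Per the labels' protocols, Trizol was used to extract total RNA, and the label was biotin.

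Signals under 1 (2211 values, 0.337%) were raised to 1 before log2. The 62 AFFX control probe sets were left out, and 29553 of 54675 probe sets with a group mean over 6.39, the overall median, were tested. All 12 arrays entered 1 model with a mean per group in limma 3.58.1 (R 4.3.3), lmFit and eBayes with a trend, which was tested on simulated data. Calls had a Benjamini-Hochberg adjusted p under 0.05 over all tested probe sets within a contrast, 2-sided. Tables and figures were made in Python 3.11.15 with pandas 2.3.3 and matplotlib 3.10.9.

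Genes were named through the platform annotation, with symbols updated to current ones, and a probe set with several symbols named no gene. Values per array were given for the variants and for cluster genes called in any contrast, and for each pathway list up to 3 genes with the smallest p in the WT induction or the untreated lines. The members, lists and rules were chosen with earlier results of these data known. Promoters came from RefSeq (GRCh38.p14).

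The same replicate numbers appear in all groups and were not treated as pairs. The alternatives were other filters, an offset of 16, quantile normalization, no trend, only the groups compared, a replicate block, array weights, other rules for probe sets and leaving out arrays.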

Additional observations from a re-analysis of the deposited data

How the results depend on the processing

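The count of cluster histone genes that rose in the WT line, 10 of 26, was 6 with a stricter filter, at the 75th percentile (8 genes tested), 5 with only the WT arrays in the fit, 5 without _x_at and _s_at probe sets (17 tested), 16 with array weights and 0 without the replicate 3 arrays, and from 7 to 16 when 1 array was left out (16 without WT tetracycline replicate 1). For the difference of the inductions, 0 in the limma fit, it was 1 with the stricter filter, 1 with an offset of 16, 1 with a replicate block (H2BC12 each time), 10 with array weights and from 0 to 11 when 1 array was left out (11 without WT tetracycline replicate 1). For the untreated lines, 5, it was 3 without a filter, 1 with the stricter filter, 3 with quantile normalization, 12 with array weights, 0 without the replicate 3 arrays and from 1 to 11 when 1 array was left out (11 without WT tetracycline replicate 1, 1 without any of the untreated mutant arrays). For the lines with tetracycline, 8, it was 5 without a filter, 5 with the stricter filter, 4 without a trend, 4 with only the groups compared, 1 without the replicate 3 arrays, 4 without _x_at and _s_at probe sets and from 1 to 11 when 1 array was left out. The cause of these shifts was not tested, beyond the smaller number of genes or arrays that some settings leave. Under the alternatives, shares over all probe sets were counted only where given above, so the other counts stand without a share. In the mutant line the count was 0 under every alternative run. With the replicate block the counts were 8, 6 and 10 for the WT line and for WT against mutant without and with tetracycline, and beyond H2BC12 above no call count moved by over 1.5 times. The block lost the WT rises of H2AC6 (adjusted p = 0.052) and H2AC16 (adjusted p = 0.0551). Same-numbered arrays, as deviations from their group means, correlated at 0.0258 to 0.254 in the 6 pairs within a line (4 over 0.1). Differently numbered arrays of the same line correlated at -0.291 to 0.113. Between lines the 12 same-numbered pairs ran from -0.00534 to 0.0806 (0 over 0.1). WT untreated replicate 3 correlated best with mutant untreated replicate 2 (0.111). The numbers were not taken as pairs in the limma fit. Pairing within a line was not settled, since the replicate block spanned both lines and no fit paired arrays within each line. Of 1102 changes of single genes under the alternatives 891 kept their direction and side of the threshold, 178 lost it, 16 passed newly, and 17 uncalled values changed sign, the one with the largest change before it being H2AC5P in the WT line (0.81, and -0.041 without WT untreated replicate 1). With 3 arrays a group and dim signals, changes in the 17 dim cluster genes could not be judged.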
